A study of Macaca fascicularis with 56 samples.

Results

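The genes described here handle iron: they regulate, import, export, store and reduce it or release it from heme. Of 10 listed by name, the 9 with a probe set of their own were measured, out of 16020 genes tested. They were HAMP, SLC40A1, SLC11A1, TFRC, FTL, HMOX1, STEAP1, STEAP3 and STEAP4. The remaining one, FTH1, the ferritin heavy chain gene, was not analysed here, because no probe set carries its symbol alone in the probe table used. For every gene the probe set with its symbol alone and the highest mean over all 56 arrays was used, and the genes were followed at 0, 2, 4 and 8 h within the same animals.

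The data are 56 human genome arrays hybridised with whole-blood RNA of 14 cynomolgus macaques (Macaca fascicularis), 1 array per animal and hour. Per the series title, the study followed blood gene expression over time after an endotoxin challenge and treatment with LR12 or its scrambled form. LR12 is a short peptide taken from the TREM-like transcript 1 protein, which binds what TREM-1 binds and so keeps it from that receptor, an amplifier of inflammatory signalling on neutrophils and monocytes. The LR12 arm held 6 animals (Y31309 to Y31314), the peptide control arm, which the series title describes as scrambled LR12, 4 animals (Y31305 to Y31308), and the vehicle arm 4 animals (Y31301 to Y31304). The labels give no doses, ages or strains. Whether vehicle animals were given endotoxin is not stated, nor how hour 0 relates to the challenge and the treatment.

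Hepcidin, the product of HAMP, is a peptide hormone that binds the iron exporter ferroportin, the product of SLC40A1, and causes its degradation, so that iron stays inside macrophages and enterocytes. Inflammation raises hepcidin through interleukin 6 and STAT3, and the liver is its main source. Phagocytes take up iron bound to transferrin through the transferrin receptor (TFRC), free iron from heme with heme oxygenase 1 (HMOX1), store iron in ferritin (FTL and FTH1), and move metal out of the phagosome with SLC11A1, also called NRAMP1. The STEAP proteins form a family of membrane metalloreductases.

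Values are log2 of the deposited array intensity, on which a difference of 1 is a 2-fold change. Levels were tested between groups for 1 gene, never between genes. Brightness was ranked for FTL, set side by side for hepatocyte markers and summed over marker lists. Those values describe array signal, not amounts of RNA. Changes were tested with limma over all 16020 genes with the animal as a random block, and p values were adjusted by Benjamini-Hochberg within a comparison. Genes with an adjusted p under 0.05 are described as called. Errors after ± are standard errors of that fit unless SD is written. In bulk blood, fewer cells of a type and less RNA per cell cannot be told apart, and the number of arrays limits the precision.

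A pair of animals stood apart from their arm. Over all 16020 genes, the change from 0 h to 2 h of the peptide control animal Y31305 correlated with the mean change of the LR12 animals at -0.0015, against 0.42 to 0.55 in the other 3 peptide control animals. The change of the vehicle animal Y31303 correlated with it at 0.37, against 0.21, 0.24 and -0.014 in Y31301, Y31302 and Y31304. By this value at 2 h, Y31304 lay further from its nearest arm-mate than Y31303 did. At 4 and 8 h the correlations of Y31303 were 0.49 and 0.45, against 0.026 to 0.27 and 0.077 to 0.18 in the other 3. Correlations across genes are descriptions, since genes are not independent. Results that rest on these animals are given with all 14 animals and without both, a setting chosen after seeing the data. Both were picked by how their genes changed, so leaving them out moves the peptide control and vehicle arms apart by construction. Calls in that setting are descriptions, not independent support. The arrays also fell into 24 with a high and 32 with a low level of their 24 spiked poly-A control probe sets, and the share of high arrays differed between groups: 1, 1, 2 and 3 of 6 LR12 arrays at 0, 2, 4 and 8 h, 3, 1, 4 and 3 of 4 peptide control arrays, and 2, 0, 2 and 2 of 4 vehicle arrays. The median change from 0 h of all genes in the LR12 arm was -0.18, -0.29 and -0.27 at 2, 4 and 8 h.

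In blood of LR12 animals, 4 of the 9 iron genes rose at 2 h, 6 at 4 h and 6 at 8 h, and none fell. HAMP, TFRC, HMOX1 and STEAP1 rose at 2 h, STEAP1 having passed the low-value filter only through hours after 0 h. At 4 h SLC40A1 and STEAP4 were added, and at 8 h SLC11A1 was added while HAMP was no longer called. Over all genes tested, 37.8% were called at 2 h (12.1% higher), 42.6% at 4 h (12.8% higher) and 36.4% at 8 h (10.9% higher). With each array centred on its own median, 2939 of 6223 calls at 4 h and 2693 of 4931 at 8 h were higher, against 2047 of 6827 and 1740 of 5832 without centring. The median change of the 9 genes was 0.32, 1.13 and 0.77 at these hours. In the peptide control arm, TFRC, HMOX1 and STEAP1 were called higher at 2 h, SLC40A1, HMOX1 and STEAP1 at 4 h, and HMOX1 at 8 h. The shares of all genes called there were 7.63% (4.37% higher), 15.3% (4.82% higher) and 4.29% (2.38% higher). In the vehicle arm limma called none of the 9 at any hour, where 0.0749%, 0.481% and 0.144% of all genes were called. At an unadjusted p below 0.05 limma counted 3, 3 and 1 of the 9 in the vehicle arm at 2, 4 and 8 h. The shares of all genes are at the adjusted threshold, so these counts cannot be set against them. With Y31305 and Y31303 left out, limma called 4, 3 and 4 of the 9 in peptide control animals at 2, 4 and 8 h, and 0, 1 and 0 in vehicle animals. The shares above are from the fit with all animals, so nothing particular to the iron genes is read from these counts.

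**Figure D1:**
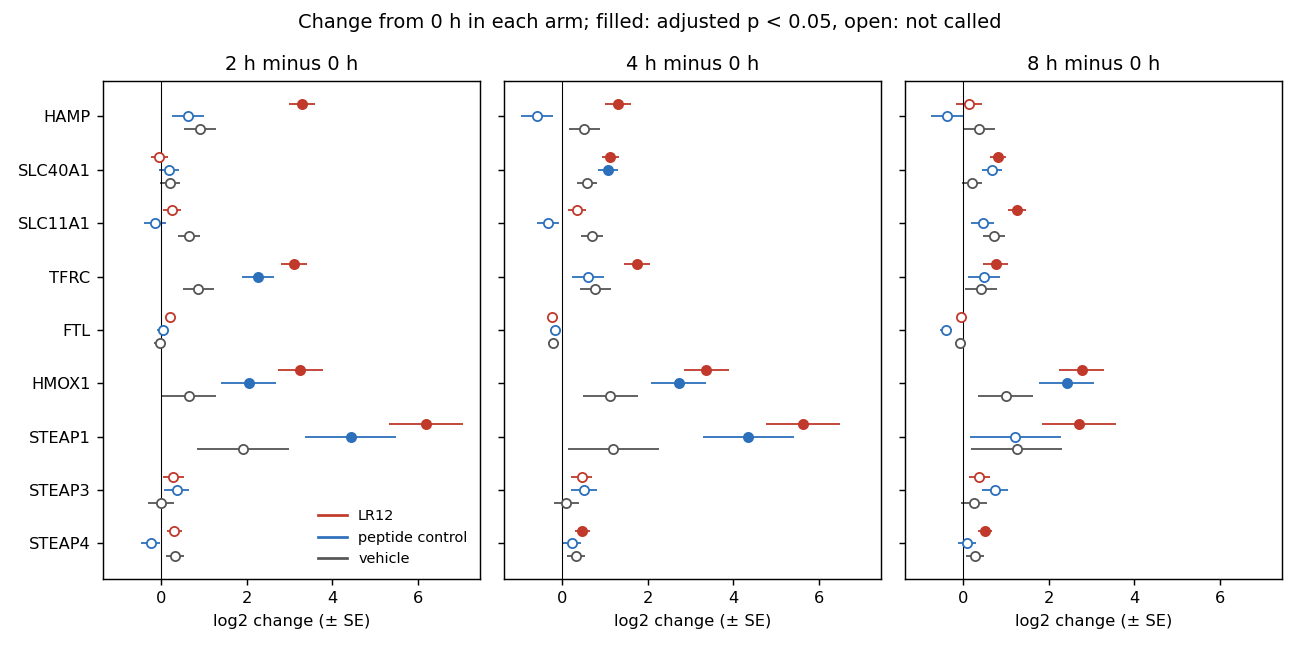
Log2 change of each iron gene from 0 h to 2, 4 and 8 h (horizontal axis, ± SE) in the LR12, peptide control and vehicle arms, filled where called at an adjusted p below 0.05. HAMP rose by 3.29 in the LR12 arm at 2 h while both other arms lay below 1, and no vehicle point is filled.

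HAMP was the only iron gene called between LR12 and the peptide control. It was read by 1 probe set, with no other to check it against. In LR12 animals it ran from 4.97 to 5.94 (median 5.43) at 0 h, from 7.66 to 10.34 (median 8.58) at 2 h, from 6.29 to 7.67 (median 6.64) at 4 h and from 5.12 to 6.48 (median 5.39) at 8 h. In peptide control animals Y31305, Y31306, Y31307 and Y31308 it was 5.67, 6.26, 5.45 and 5.92 at 0 h, 5.17, 7.45, 6.18 and 7.03 at 2 h, 4.97, 5.53, 5.13 and 5.40 at 4 h, then 5.59, 5.37, 5.17 and 5.68 at 8 h. In vehicle animals Y31301, Y31302, Y31303 and Y31304 it was 5.14, 5.11, 5.35 and 4.84 at 0 h, 5.62, 5.41, 7.99 and 5.08 at 2 h, 5.54, 5.13, 6.26 and 5.63 at 4 h, then 5.46, 5.30, 5.54 and 5.71 at 8 h. Every LR12 animal peaked at 2 h. At 8 h their differences from 0 h ran from -0.14 to 0.27 in 5 animals and reached 0.71 in Y31310. At 2 h the lowest LR12 animal lay above the highest peptide control animal.

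HAMP changed in the LR12 arm by 3.29 ± 0.30 at 2 h (9.75-fold, adjusted p = 5.71e-12, higher in 6 of 6 animals) and by 1.31 ± 0.30 at 4 h (adjusted p = 0.000344, 6 of 6). At 8 h the difference was 0.15 ± 0.30 (adjusted p = 0.743). The steps down were called too, by -1.98 ± 0.30 between 2 and 4 h (adjusted p = 2.54e-06) and by -1.16 ± 0.30 between 4 and 8 h (adjusted p = 0.00708). In the peptide control arm the changes of HAMP were 0.63 ± 0.37, -0.57 ± 0.37 and -0.37 ± 0.37 at 2, 4 and 8 h, none of them called (adjusted p = 0.358, 0.306 and 0.637). Without Y31305 and Y31303 the change at 2 h in that arm was 1.01 ± 0.35 and was called (adjusted p = 0.0459). In the vehicle arm the changes were 0.91 ± 0.37, 0.53 ± 0.37 and 0.39 ± 0.37 (adjusted p = 0.360, 0.533 and 0.820), with Y31303 the highest animal at 2 and 4 h.

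Set against the peptide control at the same hour, HAMP was higher in LR12 animals by 2.27 ± 0.38 at 2 h (4.82-fold, 95% interval 1.498 to 3.04, adjusted p = 0.000466) and by 1.49 ± 0.38 at 4 h (2.81-fold, 95% interval 0.72 to 2.26, adjusted p = 0.0269), and the groups did not overlap at either hour, which held in the same direction for 0.780% and 1.79% of all genes. It was the only one of the 9 called against the peptide control, at hours where 4.53% and 1.85% of all genes were called (0.381% and 0.499% higher). Leaving out Y31305 and Y31303 gave differences of 1.84 ± 0.34 (adjusted p = 0.00110) and 1.39 ± 0.34 (adjusted p = 0.0325). Among low-control arrays alone the difference at 2 h was 2.60 ± 0.53 (adjusted p = 0.0133), and among high-control arrays alone that at 4 h was 1.96 ± 0.33 (adjusted p = 0.0249). The former left out the LR12 array of Y31311 and the peptide control array of Y31306, which had the highest HAMP of its group at 2 h (7.45). The latter kept only 2 of 6 LR12 arrays, Y31310 and Y31311. These had the highest HAMP values of that group at 4 h, 7.67 and 6.77. At 4 h the call was lost when Y31305, Y31307, Y31308 or Y31313 was left out (adjusted p from 0.0653 to 0.0928). At 8 h the difference was 0.14 ± 0.38 (95% interval -0.63 to 0.91), where limma called 0.0624% of all genes and none of the 9, with 0 of the 9 at an unadjusted p below 0.05.

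The change of HAMP from 0 h to 2 h was itself larger in LR12 than in peptide control animals, by 2.65 ± 0.48 (adjusted p = 0.00546), where 1.17% of all genes were called and 0.0874% were called higher. Without the animal as a block the same difference had an adjusted p of 0.106, and without Y31305 and Y31303 it was 2.28 ± 0.43 (adjusted p = 0.00578). At 4 h the difference in change was 1.88 ± 0.48 and was not called (adjusted p = 0.138), but with the animal as a fixed block it was (adjusted p = 0.0362). At 4 h 0.00624% and at 8 h 0% of all genes were called in that comparison. Against vehicle, the change to 2 h was larger in LR12 animals by 2.37 ± 0.48 (adjusted p = 0.00178). HAMP was higher in LR12 than in vehicle animals by 2.70 ± 0.38 at 2 h (adjusted p = 4.92e-06), when Y31303 overlapped with the LR12 group (3.35 ± 0.34 without Y31305 and Y31303), and by 1.11 ± 0.38 at 4 h (adjusted p = 0.0435). The 4 h call was lost without the animal block (adjusted p = 0.0599) and when any of Y31301, Y31302, Y31304, Y31310, Y31311, Y31312 or Y31313 was left out.

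**Figure D2:**
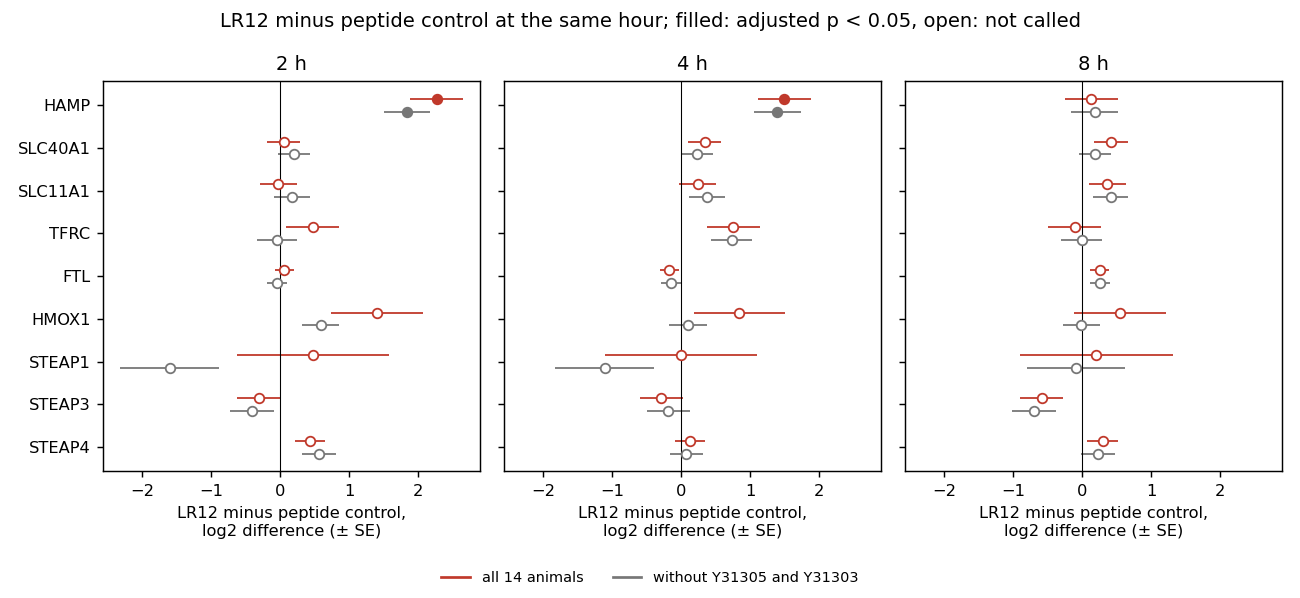
Difference between LR12 and peptide control animals at 2, 4 and 8 h (horizontal axis, log2, ± SE) for each iron gene, with all 14 animals and without Y31305 and Y31303, filled where called at an adjusted p below 0.05. Only the HAMP points at 2 and 4 h are filled, at 2.27 and 1.49 with all animals and at 1.84 and 1.39 without the 2.

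Hepatocyte markers were looked at because HAMP is mainly a liver gene. Of the 10 listed, ALB, APOA2 and FGB did not pass the filter on low values. SERPINA1, which leukocytes also express, lay above the array median on all 56 arrays and rose at each hour in the LR12 arm. The other 6 lay above the median on 5 to 44 of 56 arrays, and none of them was called in the LR12 arm at any hour. The summed intensity of the 7 measured markers, made almost wholly of SERPINA1 (median log2 13.41 over the arrays, against medians of 2.85 to 4.52 for the other 6), ran from 11002 to 16528 in LR12 animals at 2 h, against 5078 to 11186 at 0 h.

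TFRC, the receptor that brings transferrin-bound iron into the cell, rose in LR12 and in peptide control animals. Its LR12 values ran from 5.84 to 6.63 (median 6.31) at 0 h, from 8.93 to 9.83 (median 9.48) at 2 h, from 7.63 to 8.46 (median 8.10) at 4 h and from 6.36 to 7.68 (median 7.11) at 8 h. Y31305 to Y31308, the peptide control animals, had 6.96, 6.57, 6.68 and 6.44 at 0 h, 7.38, 9.19, 9.91 and 9.23 at 2 h, 7.20, 7.85, 7.28 and 6.78 at 4 h, then 7.46, 7.35, 7.13 and 6.70 at 8 h. Y31301 to Y31304, the vehicle animals, had 6.91, 6.82, 6.20 and 5.22 at 0 h, 6.30, 6.58, 9.15 and 6.62 at 2 h, 7.07, 7.59, 7.10 and 6.53 at 4 h, then 7.13, 6.84, 6.93 and 5.98 at 8 h. At 2 h all LR12 animals and 3 of 4 peptide control animals lay near or above 9, Y31305 lay below them, and Y31303 was the one vehicle animal among them.

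In the LR12 arm TFRC rose by 3.11 ± 0.30 at 2 h (8.62-fold, adjusted p = 1.75e-11), by 1.75 ± 0.30 at 4 h (adjusted p = 3.80e-06) and by 0.77 ± 0.30 at 8 h (adjusted p = 0.0397), in 6 of 6 animals each time. It fell by 1.36 between 2 and 4 h and by 0.98 between 4 and 8 h (adjusted p = 0.000701 and 0.0247). The 8 h rise was not called when any of Y31310 to Y31314 was left out (adjusted p up to 0.142), nor was the last step without Y31309, Y31310, Y31312 or Y31314 (adjusted p up to 0.124). In the peptide control arm it rose by 2.26 ± 0.37 at 2 h (adjusted p = 6.02e-05, 4 of 4 animals), and by 2.88 ± 0.30 without Y31305 and Y31303. LR12 and peptide control animals differed at 2 h by 0.47 ± 0.38 (95% interval -0.29 to 1.23, adjusted p = 0.557), and by -0.04 ± 0.30 without the 2 animals, neither called. Against vehicle, TFRC was higher in LR12 animals at 2 h by 2.23 ± 0.38 (adjusted p = 5.67e-05). The next brightest TFRC probe set rose by 1.20 ± 0.27 in the LR12 arm at 2 h (adjusted p = 0.000273) and by 0.53 ± 0.33 in the peptide control arm, where it was not called (adjusted p = 0.396).

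HMOX1, the enzyme that opens the heme ring and frees its iron, rose at 2 h and stayed high through 8 h. In LR12 animals it ran from 7.83 to 8.87 (median 8.22) at 0 h, from 10.84 to 11.86 (median 11.57) at 2 h, from 11.16 to 11.82 (median 11.72) at 4 h and from 10.67 to 11.77 (median 10.80) at 8 h. The peptide control values, in the order Y31305 to Y31308, were 8.10, 7.84, 7.93 and 8.27 at 0 h, 7.64, 10.64, 10.53 and 11.54 at 2 h, 8.53, 11.77, 11.02 and 11.73 at 4 h, then 8.76, 11.03, 11.40 and 10.63 at 8 h. The vehicle values, in the order Y31301 to Y31304, were 7.79, 7.86, 8.02 and 8.04 at 0 h, 7.34, 7.47, 11.29 and 8.20 at 2 h, 7.63, 7.62, 12.42 and 8.57 at 4 h, then 7.70, 7.76, 12.27 and 7.99 at 8 h. Y31305 stayed below every other peptide control animal at each later hour, while Y31303 reached the highest values of all 56 arrays.

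In the LR12 arm HMOX1 rose by 3.26 ± 0.52, 3.37 ± 0.52 and 2.77 ± 0.52 at 2, 4 and 8 h (adjusted p = 1.76e-06, 7.49e-07 and 4.29e-05), in 6 of 6 animals each time. The rises in peptide control animals were 2.06 ± 0.64, 2.73 ± 0.64 and 2.42 ± 0.64 (adjusted p = 0.0371, 0.00394 and 0.0206), and by 2.89 ± 0.28, 3.50 ± 0.28 and 3.01 ± 0.28 without Y31305 and Y31303. With Y31305 kept, leaving out Y31306 ended the peptide control calls at all 3 hours, Y31307 or Y31308 those at 2 and 8 h (adjusted p up to 0.285). LR12 and peptide control animals differed by 1.41 ± 0.66 at 2 h (adjusted p = 0.239), and by 0.59 ± 0.27 without the 2 animals (adjusted p = 0.257), neither called. Against vehicle, HMOX1 was higher in LR12 animals by 2.92 ± 0.66 at 2 h (adjusted p = 0.00152) and 2.55 ± 0.66 at 4 h (adjusted p = 0.00706). At 8 h the difference was 2.08 ± 0.66 and was not called (adjusted p = 0.0559). Leaving out Y31305 and Y31303 made these differences 3.82, 3.67 and 3.19, each ± 0.27 and called. The 4 h call was lost without Y31301 (adjusted p = 0.0760) or Y31302 (adjusted p = 0.0720).

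**Figure D3:**
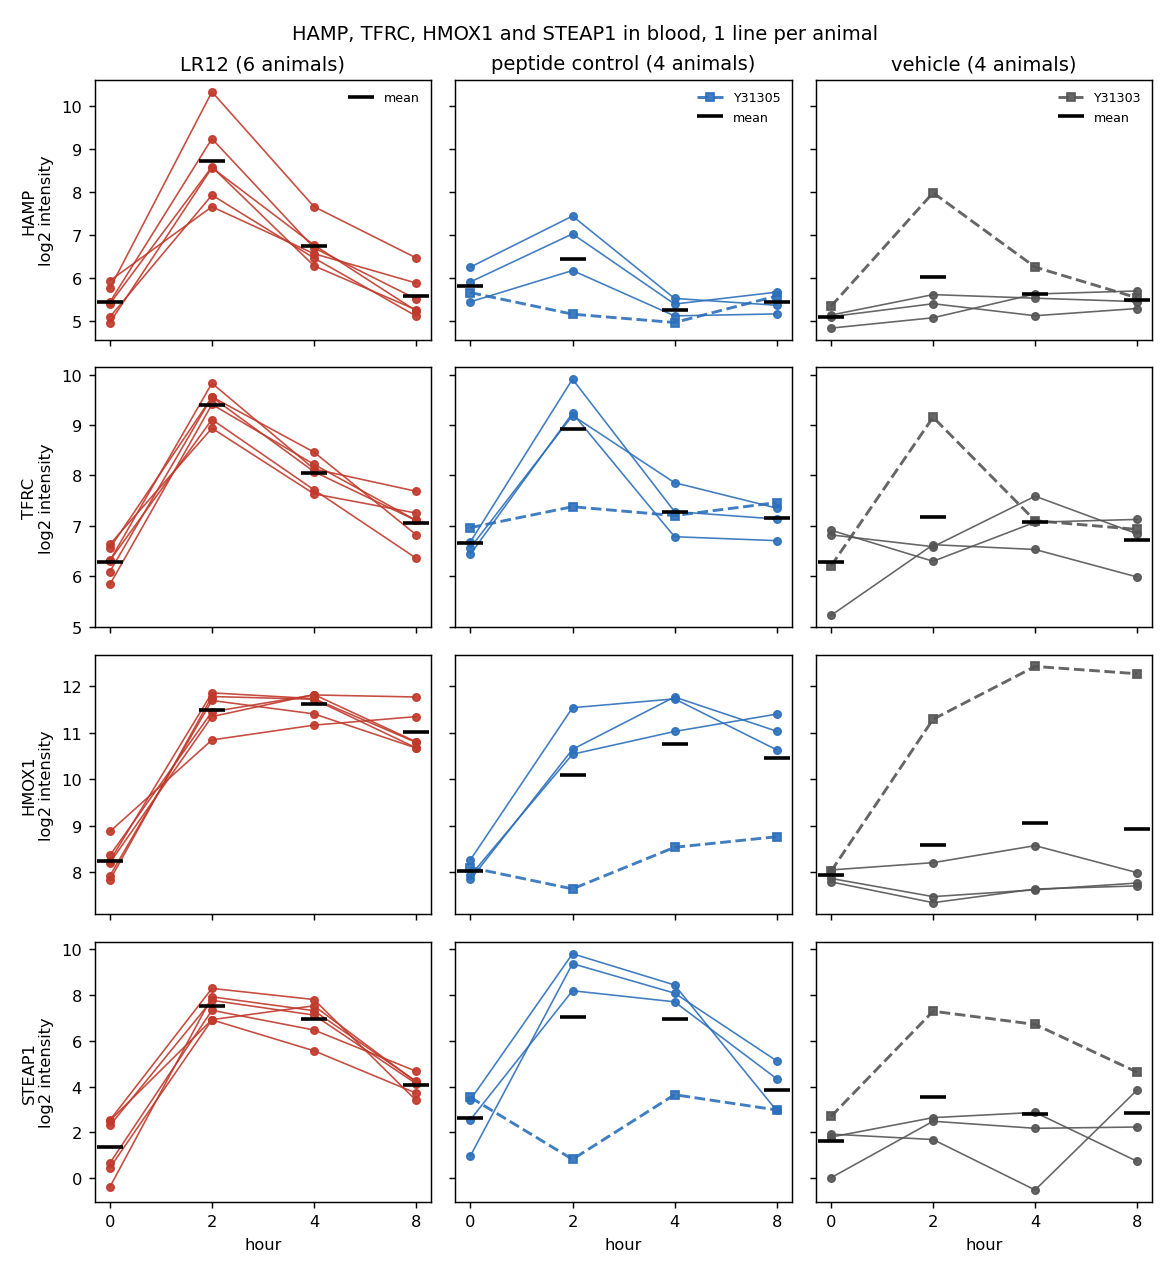
Log2 intensity (vertical axis) of HAMP, TFRC, HMOX1 and STEAP1 at 0, 2, 4 and 8 h in each animal of the LR12, peptide control and vehicle arms, with the mean of each group as a black dash and Y31305 and Y31303 as dashed lines with squares. HAMP in the 6 LR12 animals reached 7.66 to 10.34 at 2 h, against 5.17 to 7.45 in the peptide control animals.

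STEAP1, a member of the STEAP family of membrane proteins, lay below the array median on every array at 0 h. It was higher at each later hour in every LR12 animal, but not in every peptide control or vehicle animal. Its LR12 values ran from -0.38 to 2.54 (median 1.48) at 0 h, from 6.92 to 8.30 (median 7.56) at 2 h, from 5.57 to 7.81 (median 7.23) at 4 h and from 3.40 to 4.68 (median 4.17) at 8 h. Among peptide control animals Y31305 to Y31308 it was 3.53, 3.43, 2.56 and 0.98 at 0 h, 0.82, 9.81, 8.20 and 9.38 at 2 h, 3.65, 8.45, 7.71 and 8.09 at 4 h, then 2.98, 2.96, 4.35 and 5.13 at 8 h. Among vehicle animals Y31301 to Y31304 it was 1.93, 1.80, 2.70 and 0.02 at 0 h, 1.69, 2.65, 7.30 and 2.49 at 2 h, -0.52, 2.88, 6.72 and 2.18 at 4 h, then 3.85, 0.74, 4.63 and 2.24 at 8 h. At 0 h it lay under the 20th percentile of the array on 3 of 6 LR12, 1 of 4 peptide control and 3 of 4 vehicle arrays, so the sizes of its rises depend on how low values are treated. STEAP1 passed the low-value filter only through later hours, where it was high. Its calls against 0 h, and the counts that include them, are therefore not independent of that filter.

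In the LR12 arm STEAP1 rose by 6.18 ± 0.87 at 2 h, 5.63 ± 0.87 at 4 h and 2.71 ± 0.87 at 8 h (adjusted p = 1.16e-07, 6.17e-07 and 0.0115), in 6 of 6 animals each time. With 16 added to every intensity before the log2 these were 3.39, 2.90 and 0.78, and the last was not called (adjusted p = 0.216). It was also not called without Y31309 or Y31311 (adjusted p = 0.0569 and 0.0644). Between 4 and 8 h it fell by 2.91 (adjusted p = 0.0217), a call lost without Y31310, Y31311, Y31312 or Y31313. In the peptide control arm it rose by 4.43 ± 1.07 at 2 h and 4.35 ± 1.07 at 4 h (adjusted p = 0.00524 and 0.00516), and by 6.80 ± 0.73 and 5.76 ± 0.73 without Y31305 and Y31303. With Y31305 kept, both calls were lost when any of Y31306, Y31307 and Y31308 was left out (adjusted p up to 0.184). LR12 and peptide control animals differed at 2 h by 0.48 ± 1.10 (95% interval -1.74 to 2.69, adjusted p = 0.881) and by -1.60 ± 0.71 without the 2 animals (adjusted p = 0.241). Against vehicle, STEAP1 was higher in LR12 animals by 4.00 ± 1.10 at 2 h and 4.16 ± 1.10 at 4 h (adjusted p = 0.00805 and 0.00787), the 4 h call being lost without Y31301 (adjusted p = 0.106).

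SLC40A1, the gene of ferroportin, the exporter that hepcidin acts on, rose after HAMP had peaked. In LR12 animals it ran from 10.34 to 12.24 (median 11.63) at 0 h, from 10.91 to 11.78 (median 11.49) at 2 h, from 12.37 to 12.89 (median 12.64) at 4 h and from 11.85 to 12.77 (median 12.27) at 8 h. In peptide control animals Y31305 to Y31308 it was 11.15, 11.66, 11.08 and 10.89 at 0 h, 11.83, 11.68, 10.81 and 11.25 at 2 h, 11.92, 12.78, 12.26 and 12.10 at 4 h, then 11.19, 12.37, 12.01 and 11.96 at 8 h. In vehicle animals Y31301 to Y31304 it was 11.86, 11.29, 11.44 and 11.58 at 0 h, 12.16, 11.80, 11.52 and 11.59 at 2 h, 12.21, 11.97, 12.40 and 11.95 at 4 h, then 12.12, 11.22, 12.39 and 11.31 at 8 h. In all 14 animals the highest of the 4 hours was 4 h, and in no arm did the 4 h values overlap with those at 0 h. Groups that did not overlap in this direction at 4 h were seen for 6.03% of all genes in the LR12 arm, 4.29% in the peptide control arm and 1.54% in the vehicle arm.

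SLC40A1 changed in the LR12 arm by -0.03 ± 0.19 at 2 h (adjusted p = 0.924), and rose by 1.13 ± 0.19 at 4 h (2.20-fold, adjusted p = 2.22e-06) and 0.83 ± 0.19 at 8 h (adjusted p = 0.000455), in 6 of 6 animals at both. In the peptide control arm it rose by 1.07 ± 0.23 at 4 h (adjusted p = 0.00208, 4 of 4 animals). In the vehicle arm the 4 h change was 0.59 ± 0.23 and was not called (adjusted p = 0.219), although 4 of 4 animals were higher. The arms' 4 h values for SLC40A1 differed by 0.34 ± 0.24 between LR12 and peptide control (95% interval -0.14 to 0.83) and by 0.48 ± 0.24 between LR12 and vehicle (95% interval -0.01 to 0.96), neither called. Its dimmer probe set rose in the LR12 arm already at 2 h, by 0.78 ± 0.31 (adjusted p = 0.0376), and was not called in the peptide control arm at 4 h (adjusted p = 0.689).

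SLC11A1, the divalent metal transporter of the phagosome membrane, rose last in the LR12 arm. Its LR12 values ran from 8.74 to 10.17 (median 9.46) at 0 h, from 9.19 to 10.31 (median 9.80) at 2 h, from 9.33 to 10.38 (median 9.91) at 4 h and from 10.43 to 11.18 (median 10.74) at 8 h. Y31305 to Y31308, the peptide control animals, had 9.92, 9.63, 9.94 and 10.37 at 0 h, 10.42, 9.42, 9.53 and 9.92 at 2 h, 10.06, 9.50, 9.27 and 9.77 at 4 h, then 10.58, 10.62, 10.55 and 9.96 at 8 h. Y31301 to Y31304, the vehicle animals, had 9.50, 9.05, 10.001 and 9.93 at 0 h, 10.42, 10.39, 9.65 and 10.62 at 2 h, 10.68, 11.11, 9.37 and 10.11 at 4 h, then 10.71, 10.50, 10.24 and 9.92 at 8 h. All 6 LR12 animals were highest at 8 h, as were 3 of 4 peptide control and 2 of 4 vehicle animals, and the 8 h values of the LR12 arm did not overlap with its 0 h values, as for 4.53% of all genes.

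SLC11A1 rose in the LR12 arm by 1.25 ± 0.21 at 8 h (2.38-fold, adjusted p = 5.28e-06, 6 of 6 animals), most of it between 4 and 8 h (0.90 ± 0.21, adjusted p = 0.00237). The 4 h difference of 0.35 ± 0.21 missed the threshold (adjusted p = 0.177), but with arrays centred on their median it was 0.62 and called (adjusted p = 0.0245). At 8 h it changed by 0.46 ± 0.26 in peptide control animals and by 0.72 ± 0.26 in vehicle animals, neither called (adjusted p = 0.324 and 0.279), and LR12 and peptide control animals differed at 8 h by 0.36 ± 0.27 (95% interval -0.17 to 0.90). In vehicle animals SLC11A1 had changed by 0.65 and 0.70 already at 2 and 4 h, neither called. On low-control arrays alone, at 0 and 4 h those of Y31301 and Y31302, limma called both vehicle changes of SLC11A1 (1.04 and 1.62, adjusted p = 0.0419 and 0.00625). On these arrays limma also called its LR12 change at 4 h (0.56, adjusted p = 0.0284). With Y31305 and Y31303 left out it was called in the vehicle arm at 4 h (1.14 ± 0.26, adjusted p = 0.0392) and was then lower in LR12 than in vehicle animals at 2 and 4 h, by -0.68 ± 0.26 and -0.75 ± 0.26 (adjusted p = 0.0466 and 0.0266). Neutrophil markers moved in the same arm: 12, 14 and 13 of 16 rose in LR12 animals at 2, 4 and 8 h and none fell, where 12.1%, 12.8% and 10.9% of all genes rose. Their summed intensity ran from 44003 to 54547 in LR12 animals at 8 h, against 14768 to 33449 at 0 h, and from 41856 to 60339 already at 2 h. In peptide control animals it ran from 32986 to 43208 at 8 h, against 27364 to 35922 at 0 h. In vehicle animals it ran from 22104 to 53956 at 8 h, against 14942 to 35931 at 0 h. With all animals SLC11A1 was called in neither of these arms. The summed intensity of 13 monocyte markers ran from 26028 to 34030 in LR12 animals at 8 h, against 16236 to 25388 at 0 h. Its median was 26858, 29857 and 31363 at 2, 4 and 8 h. The part of neutrophils or monocytes in the rise of SLC11A1 was not tested.

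STEAP4, a metalloreductase of the same family, and STEAP3, the ferrireductase of the transferrin cycle, were each read by their brightest probe set, and dimmer probe sets of both gave larger changes. STEAP4 in LR12 animals ran from 11.11 to 12.42 (median 11.94) at 0 h, from 11.77 to 12.53 (median 12.17) at 2 h, from 11.98 to 12.66 (median 12.32) at 4 h and from 12.20 to 12.49 (median 12.36) at 8 h. The peptide control values, in the order Y31305 to Y31308, were 11.997, 11.99, 11.75 and 12.05 at 0 h, 12.08, 12.11, 10.57 and 12.09 at 2 h, 12.03, 12.31, 12.30 and 12.09 at 4 h, then 11.87, 12.32, 12.14 and 11.89 at 8 h. The vehicle values, in the order Y31301 to Y31304, were 11.72, 10.82, 12.07 and 12.31 at 0 h, 12.24, 11.93, 11.96 and 12.08 at 2 h, 12.03, 12.09, 12.13 and 12.02 at 4 h, then 12.03, 11.63, 12.07 and 12.37 at 8 h. The groups overlapped at every hour, and the LR12 animals Y31309 and Y31310 were the lowest of their arm at 0 h.

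STEAP4 rose in the LR12 arm by 0.48 ± 0.17 at 4 h and 0.52 ± 0.17 at 8 h (adjusted p = 0.0199 and 0.0140, 6 of 6 animals each). Both calls were lost without Y31309 or Y31310 (adjusted p from 0.0724 to 0.0879) and with quantile normalization. Its dimmer probe set rose by 1.05 ± 0.23 and 1.19 ± 0.23 (adjusted p = 0.000129 and 3.73e-05), and it was called in the vehicle arm at 4 h as well (1.10 ± 0.28, adjusted p = 0.0473). STEAP3 ran from 4.22 to 6.76 over all arrays and was called in no comparison with all 14 animals. Its changes in the LR12 arm were 0.29 ± 0.24, 0.47 ± 0.24 and 0.39 ± 0.24 at 2, 4 and 8 h. Its dimmer probe set was called there at 4 and 8 h (1.22 ± 0.49 at both, adjusted p = 0.0401 and 0.0464). Without Y31305 and Y31303, STEAP3 rose in the peptide control arm at 8 h by 1.005 ± 0.32 (adjusted p = 0.0290).

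FTL, the light chain of ferritin, was read by a bright probe set: averaged over the arrays, 13 of the 16020 genes were brighter, and the brightest averaged 14.09. Whether its signal was near saturation was not tested. In LR12 animals it ran from 13.51 to 14.10 (median 13.76) at 0 h, from 13.63 to 14.44 (median 13.997) at 2 h, from 13.47 to 13.71 (median 13.56) at 4 h and from 13.61 to 13.95 (median 13.76) at 8 h. Among peptide control animals Y31305 to Y31308 it was 13.79, 14.22, 13.65 and 13.93 at 0 h, 13.65, 14.19, 13.91 and 14.04 at 2 h, 13.83, 13.66, 13.98 and 13.54 at 4 h, then 13.53, 13.48, 13.37 and 13.66 at 8 h. Among vehicle animals Y31301 to Y31304 it was 13.55, 13.67, 14.15 and 13.98 at 0 h, 13.74, 13.77, 14.12 and 13.61 at 2 h, 13.46, 13.48, 13.99 and 13.62 at 4 h, then 13.60, 13.57, 13.98 and 13.96 at 8 h. The values of all groups overlapped.

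FTL was called in no comparison with 0 h, although with arrays centred on their median it rose by 0.27 in the LR12 arm at 2 h (adjusted p = 0.0414). Its one call was the step between 2 and 4 h in the LR12 arm, -0.43 ± 0.11 (adjusted p = 0.00290, lower in 6 of 6 animals). With each array centred on its own median the step was -0.22 ± 0.10 and was not called (adjusted p = 0.160), and the median change of all genes between these hours was -0.11. It was also lost without Y31312 (adjusted p = 0.0554). In the step between 2 and 4 h, 18.2% of all genes were called (7.95% higher and 10.2% lower) and 4 of the 9 iron genes, SLC40A1 higher and HAMP, TFRC and FTL lower. In the step between 4 and 8 h, 10.3% were called (6.12% higher and 4.23% lower) and 4 of the 9, SLC11A1 higher and HAMP, TFRC and STEAP1 lower.

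**Figure D4:**
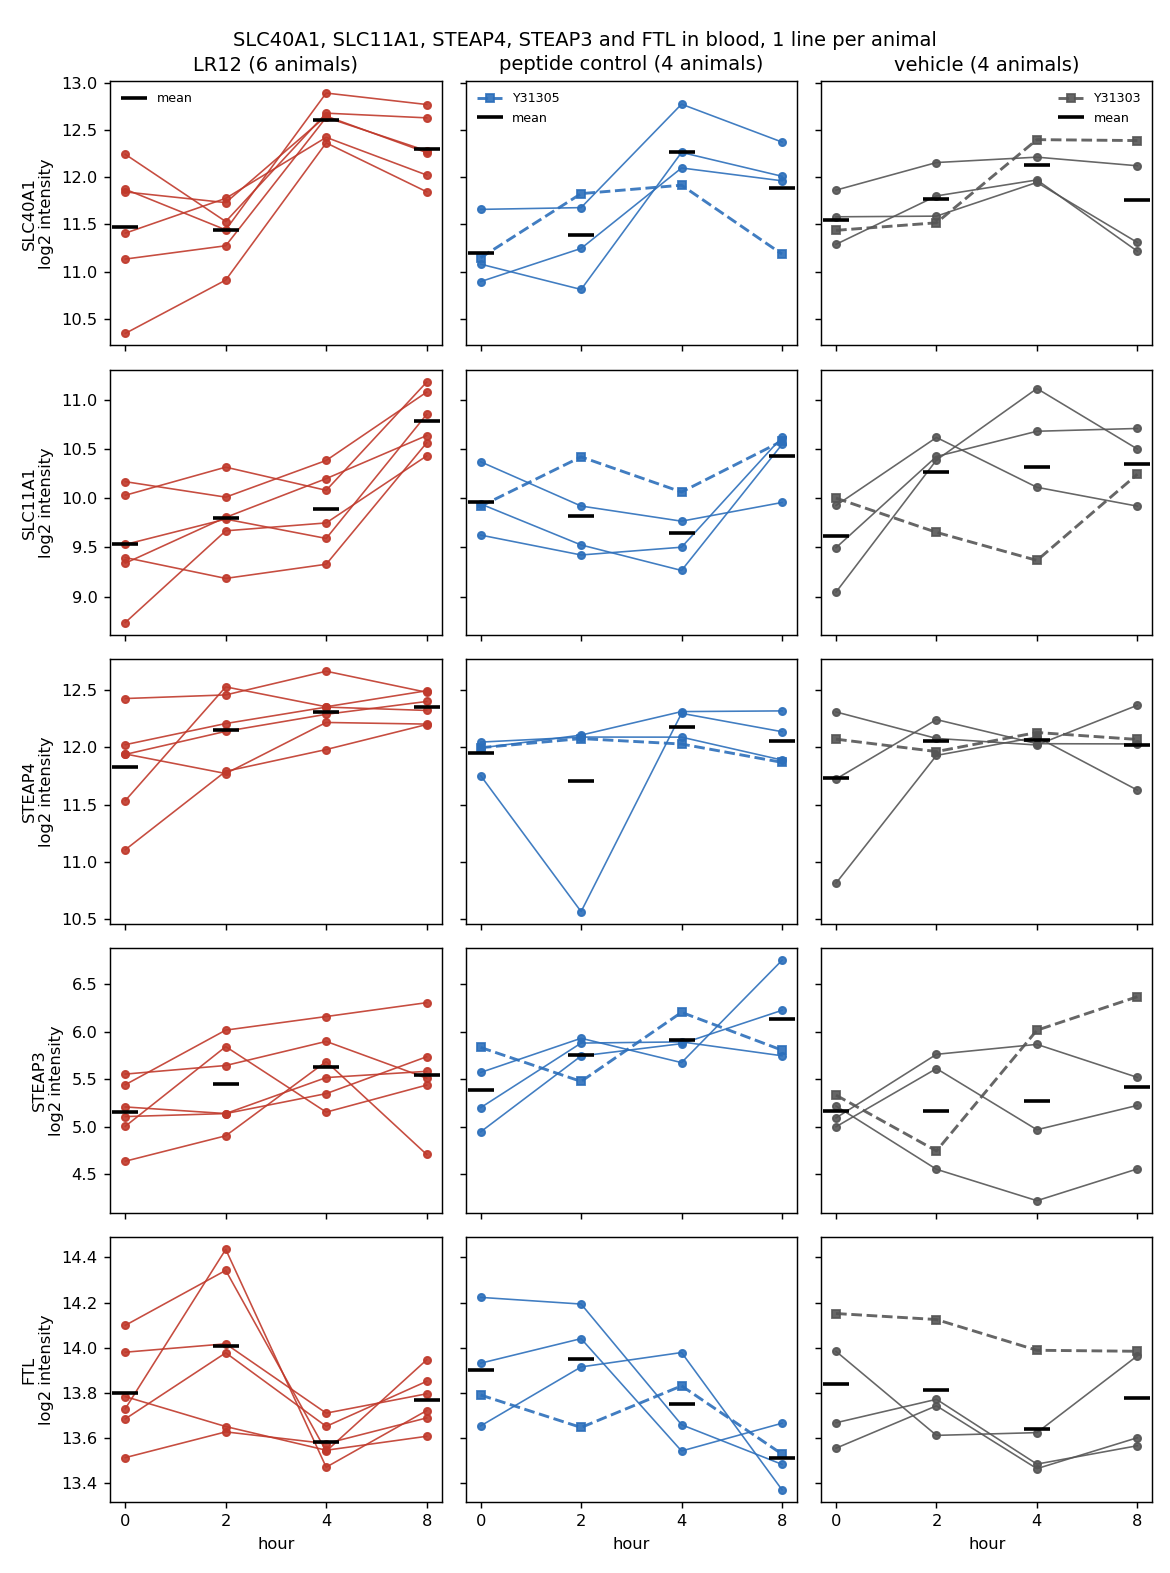
Log2 intensity (vertical axis, scaled per gene) of SLC40A1, SLC11A1, STEAP4, STEAP3 and FTL at 0, 2, 4 and 8 h in each animal of the LR12, peptide control and vehicle arms, with the mean of each group as a black dash and Y31305 and Y31303 as dashed lines with squares. SLC40A1 was highest at 4 h in all 14 animals, and SLC11A1 at 8 h in all 6 LR12 animals.

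Between the arms, limma called 4 of the 9 at 2 h (HAMP, TFRC, HMOX1 and STEAP1), 3 at 4 h (HAMP, HMOX1 and STEAP1) and none at 8 h for LR12 against vehicle, all higher, where 17.8%, 14% and 4.64% of all genes were called (5.10% and 4.94% higher at 2 and 4 h). At 8 h 2 of the 9 had an unadjusted p below 0.05. Shares of all genes in this paragraph are at the adjusted threshold, so counts at an unadjusted p cannot be set against them. Leaving out Y31303 and Y31305, the called counts for LR12 against vehicle were 5, 5 and 2. SLC11A1 was among them at 2 and 4 h and was lower in LR12 animals. The difference in change from 0 h between LR12 and vehicle was called for HAMP, TFRC, HMOX1 and STEAP1 at 2 h (10.5% of all genes, 2.81% higher), for STEAP1 at 4 h (7.02%, 2.27% higher) and by limma for none at 8 h (1.74%, and 2 of the 9 at an unadjusted p below 0.05). The calls of HMOX1 at 2 h, STEAP1 at 2 h and STEAP1 at 4 h in that comparison were lost in 8, 8 and 9 of 10 fits with 1 animal left out, while without Y31305 and Y31303 together they were kept. For the peptide control against vehicle limma called none of the 9 at 2, 4 or 8 h, where 0%, 0.0250% and 0.0250% of all genes were called, while 3, 3 and 2 of the 9 had an unadjusted p below 0.05. Leaving out both animals, the counts for that comparison were 4 (HAMP, TFRC, HMOX1 and STEAP1), 3 (SLC11A1, HMOX1 and STEAP1) and 2 (HMOX1 and STEAP3). Leaving out Y31303 alone gave 7 in all over the 3 hours, and Y31305 alone 5. Both animals were picked by their response, and that choice itself pushes these counts up. All shares of genes given here are from fits with all animals, so none stands beside the counts with animals left out. Nothing particular to the iron genes is read from those counts. These comparisons share control animals. At 0 h limma called none of the 9 between any of the arms, and none had an unadjusted p below 0.05, where 0%, 0.0312% and 0% of all genes were called for LR12 against peptide control, LR12 against vehicle and peptide control against vehicle.

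Other genes of iron handling were read as 5 lists in the LR12 arm, where 12.1%, 12.8% and 10.9% of all genes rose and 25.8%, 29.8% and 25.5% fell at 2, 4 and 8 h, with median changes of -0.18, -0.29 and -0.27. The lists are short, and nothing particular to a list is read from its counts. Of 13 genes of iron uptake and transport measured, 5, 5 and 4 rose and 4, 4 and 2 fell at 2, 4 and 8 h, with median changes of 0.30, 0.43 and 0.07. LTF, the iron-binding protein lactotransferrin of neutrophil granules, rose by 5.55 ± 0.80 at 2 h (adjusted p = 2.65e-07). SLC39A8, a zinc and iron importer, rose by 5.06 ± 0.42 at 4 h (adjusted p = 8.92e-13), and SLC11A2, the divalent metal transporter of the endosome, by 4.39 ± 0.49 at 2 h (adjusted p = 5.12e-10). SLC39A8 was also called in the vehicle arm at 2 and 4 h (2.57 ± 0.52 and 2.43 ± 0.52, adjusted p = 0.0194 and 0.0202), but without Y31305 and Y31303 at 4 h only. Between LR12 and peptide control at 2, 4 and 8 h limma called none of the 13, with all animals or without the 2, and 1, 0 and 1 of them had an unadjusted p below 0.05 with all animals.

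Of 8 genes of iron sensing and ferritin turnover, 2, 2 and 3 rose and 2, 1 and 1 fell in the LR12 arm (medians 0.23, 0.09 and 0.03). EPAS1, which encodes the hypoxia factor HIF-2 alpha, rose by 2.68 ± 0.57 at 8 h (adjusted p = 0.000209), and FBXL5, part of the ligase that degrades iron regulatory proteins, by 1.53 ± 0.21 at 4 h (adjusted p = 7.71e-08). HERC2, a ubiquitin ligase, fell by 1.06 at 4 h (adjusted p = 0.000867). Of 19 genes of hepcidin control, 4, 3 and 0 rose and 4, 5 and 5 fell (medians -0.02, -0.22 and -0.35). SMAD7, an inhibitor of BMP signalling, rose by 2.34 ± 0.40 at 2 h (adjusted p = 5.22e-06), while SMAD5, which carries that signal, fell by 1.83 at 2 h (adjusted p = 4.11e-07). BMP6, a ligand that raises hepcidin in the liver, fell by 2.41 at 8 h (adjusted p = 7.87e-05), when it lay under the 20th percentile on 3 of 6 LR12 arrays. IL6 was called in the LR12 arm at no hour (1.09 ± 0.66 at 2 h, adjusted p = 0.203), and STAT3 rose at 2 and 4 h.

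Of 15 genes of heme and hemoglobin handling, 3, 3 and 5 rose and 7, 8 and 4 fell in the LR12 arm (medians -0.42, -0.86 and -0.20). HP, haptoglobin, which binds free hemoglobin, rose by 3.94 ± 0.57 at 8 h (adjusted p = 5.70e-07). LRP1, the hemopexin receptor, fell by 3.16 at 2 h (adjusted p = 9.28e-07), with 2 of 6 arrays under the 20th percentile there, and BLVRA, a biliverdin reductase, fell by 2.64 at 2 h (adjusted p = 6.39e-11). Of 15 genes of mitochondrial iron and iron-sulfur clusters, 3, 2 and 1 rose and 7, 6 and 7 fell (medians -0.29, -0.48 and -0.50). SLC25A28, the iron importer mitoferrin 2, rose by 1.88 ± 0.22 at 2 h (adjusted p = 8.38e-10), the cluster assembly factor BOLA3 fell by 1.75 at 2 h (adjusted p = 1.13e-06), and the heme synthesis enzyme PPOX fell by 1.68 at 4 h (adjusted p = 5.18e-08).

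Against the peptide control at 2 h, 1 of the 19 hepcidin control genes, 4 of the 15 heme genes and 3 of the 15 mitochondrial genes were lower in LR12 animals, and no gene of the 5 lists was higher, where 4.15% of all genes were called lower and 0.381% higher. These were SMAD5 (-1.39 ± 0.35), BLVRA (-2.02 ± 0.34), BLVRB (-1.91 ± 0.34), SLC48A1 (-1.72 ± 0.33), CD163 (-1.54 ± 0.39), GLRX5 (-1.03 ± 0.26), BOLA3 (-2.58 ± 0.35) and PPOX (-1.28 ± 0.29), named after their values were seen, with adjusted p from 2.41e-05 to 0.0168. Without Y31305 and Y31303 all 8 were called again, with adjusted p from 6.20e-06 to 0.0239. With each array centred on its own median, 224 genes were called in place of 726 over all genes at 2 h, 6 of the 8 stayed called, and CD163 and GLRX5 did not (adjusted p = 0.0505 and 0.0709). At 4 h, where 1.35% of all genes were called lower and 0.499% higher, BLVRB (-1.27 ± 0.34), GLRX5 (-1.04 ± 0.26) and FECH (-0.97 ± 0.27) were lower in LR12 animals (adjusted p = 0.0343, 0.0235 and 0.0453). These 3 were called again without Y31305 and Y31303 (adjusted p from 0.00597 to 0.0427), and none of them with centring (adjusted p from 0.0643 to 0.0831). Red cell markers differed between the same groups: their summed intensity over 12 genes ran from 8031 to 18123 in LR12 animals at 2 h, against 14217 to 25077 in peptide control animals, and 2 of the 12 (AHSP and CA1) were called lower in LR12 animals. At 0 h the sums were 3847 to 15197 in LR12 animals and 10842 to 18572 in peptide control animals. Their part in these differences was not tested.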

How the data were processed

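Whole-blood RNA of 14 macaques was amplified from 50 ng into biotinylated cDNA and hybridised to human arrays, per the labels' protocols. The deposited table holds MAS5 intensities, which the authors computed per the submitters' processing notes, with no version given in the sources used here. The low-value filter, tests and changes below were computed from that table.

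Intensities were taken as log2 with no further normalization. Of 54675 probe sets, 41097 had 1 gene symbol in the platform annotation, 1801 several and 11777 none. Per gene, the probe set with its symbol alone and the highest mean was kept if above the array median on at least 4 of 56 arrays, which left 16020 genes, of which 13561 are listed in the RefSeq gene table of this macaque. Of the 9 iron genes, 8 lay above the array median on all 56 arrays and STEAP1 on 27. Macaque RNA on human probes gives no comparison of levels between genes.

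limma 3.58.1 (R 4.3.3, statmod 1.5.0) fitted the 3 arms and 4 hours as groups across all genes with the animal, named by the labels, as a random block (estimated correlation 0.22), with trended and robust empirical Bayes. All 29 comparisons were two-sided, with Benjamini-Hochberg adjustment within each. Replicate numbers pair hours of 1 animal, never animals of different arms. On simulated data with the same arrays and 16020 genes, the 2 h against 0 h comparison of the LR12 arm recovered 52% of 100 changes of size 1 and 87% of 100 of size 2, with 7 false calls. The simulation used normal noise at each gene's SD over the 0 h arrays and changed no other genes. In the data 37.8% of genes were called in that comparison, so these rates do not give the power of the real tests. The members, the gene lists and the tests were chosen with earlier results of these data known. Genes named from the lists are, per list, the largest called changes in the LR12 arm, at most 3. Alternatives were no or a fixed animal block, centring, quantile normalization, an offset of 16, other low-value filters, plain empirical Bayes, another probe set, the array set as a covariate or taken apart, leaving out each animal, and leaving out Y31305 and Y31303 together, added after seeing the data. Sequences and coordinates were not used here.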

Additional observations from a re-analysis of the deposited data

Results flagged for a closer look

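A sample far from the others of its group was seen in 7 of 108 gene and group combinations, where chance gives about 1 in 20. Y31310 had the highest HAMP value of the LR12 arm at 4 h, 7.67, with the next animal at 6.77. In the peptide control arm, Y31308 had the lowest SLC11A1 at 8 h (9.96, next 10.55), Y31305 the lowest STEAP1 at 4 h (3.65, next 7.71) and Y31307 the lowest STEAP4 at 2 h (10.57, next 12.08). In the vehicle arm, Y31303 had the highest TFRC at 2 h (9.15, next 6.62), the highest HMOX1 at 8 h (12.27, next 7.99) and the highest STEAP1 at 2 h (7.30, next 2.65).

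Changes from 0 h differed between arms by a test of the difference itself. HAMP changed more to 2 h in LR12 than in peptide control animals, by 2.65, and more than in vehicle animals, by 2.37. Against vehicle animals, the change to 2 h was larger in LR12 animals by 2.23 for TFRC, 2.61 for HMOX1 and 4.26 for STEAP1, and the change of STEAP1 to 4 h by 4.42.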

How the results depend on the processing

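Of the 46 called changes and differences of the 9 genes, none reversed in direction under any alternative, and all 46 stayed called without Y31305 and Y31303. The latter setting was picked by the response of these 2 animals, so it is no independent check. Calls lost numbered 11 with no animal block, 6 with centring, 3 with quantile normalization, 3 with the offset, 6 with no low-value filter, 2 with plain empirical Bayes and 2 with the array set as covariate. Another probe set lost 6 of 17 calls, low-control arrays alone 11 of 37 and high-control arrays alone 8 of 12. HAMP, HMOX1 and STEAP1 have 1 probe set each, so their calls could not be checked with another. With the animal as a fixed block, which could not be fitted for arms at the same hour, all 37 calls it could test were kept. The cause of these losses was not tested.

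Counts of called genes over the later hours were 16 in the LR12 arm (13 to 15 with 1 animal left out), 7 in the peptide control arm (2 to 8) and 0 in the vehicle arm (0 each time). They were 2 for LR12 against peptide control (1 to 2), 7 for LR12 against vehicle (4 to 11, the extremes without Y31301 and Y31303), 0 for peptide control against vehicle (0 to 7, the highest without Y31303), 1 for the difference in change between LR12 and peptide control (1 each time), 5 for that between LR12 and vehicle (2 to 7), and 8 for the LR12 steps (5 to 7, the lowest without Y31312). Without Y31305 and Y31303 together the peptide control arm had 11, the vehicle arm 1, LR12 against vehicle 12 and peptide control against vehicle 9. The share of all genes called in that setting is not given, so nothing particular to the iron genes is read from these 4 counts. The vehicle arm had 1 with another probe set and 2 on low-control arrays alone, and peptide control against vehicle had 1 with the array set as covariate. Without the animal block, that is without pairing hours by animal, the difference in change between LR12 and peptide control had 0 calls, and with the fixed block 2. The difference in change between LR12 and vehicle had 2 calls with no block, with centring and with no low-value filter, and 3 with the array set as covariate and on low-control arrays alone. The LR12 steps had 5 with another probe set and on low-control arrays alone. Over all genes, LR12 against peptide control at 2 h had 726 calls, against 224 with centring, 472 with no block, 1354 with the array set as covariate, and 192 to 1554 with 1 animal left out. Low signal limits STEAP1 at 0 h.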

Other observations

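Over the 56 arrays, the genes whose log2 values followed each iron gene most closely were read by Pearson correlation, given as a description since arrays of 1 animal are not independent and the points share hour and arm. HAMP was closest to PLAGL2 (0.87) and PLEK (0.85), TFRC to IER5 (0.94) and ETF1 (0.92), and HMOX1 to CHI3L2 (0.96) and PI3 (0.95). STEAP1 was closest to INHBA (0.89) and RIN2 (0.89), SLC40A1 to NT5C3A (0.78) and RGS18 (0.77), and SLC11A1 to ENTPD1 (0.83) and NFAM1 (0.80). FTL was closest to TMSB4X (0.95) and TMSB10 (0.94), and STEAP4 to NFE2 (0.76) and MPZL3 (0.75).

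Markers of other blood cells were counted in the LR12 arm, where 12.1%, 12.8% and 10.9% of all genes rose and 25.8%, 29.8% and 25.5% fell at 2, 4 and 8 h. T cell markers fell in 12, 13 and 12 of 13 at 2, 4 and 8 h, and red cell markers in 0, 2 and 10 of 12, with no marker of either list rising. Monocyte markers rose in 4, 7 and 7 of 13 and fell in 5, 3 and 1. Platelet markers rose in 1, 0 and 0 of 7 and fell in 0, 4 and 4, and B cell markers fell in 8, 5 and 7 of 9.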
